A study of Mus musculus with 2 samples.

Results

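The Kruppel-like factor (KLF) genes Klf1, Klf2, Klf3, Klf4, Klf6, Klf9, Klf10 and Klf13 were followed through the cell types of the mouse fetal liver at E12.5. These 8 genes were taken by their symbols from the gene lists of the deposited count matrices, which held 27998 genes, and each symbol was found once in each library. Single-cell transcriptomes of 1 untreated wild-type liver from a C57BL/6 embryo (C57BL/6J in the methods) were measured by droplet-based scRNA-seq. After dissociation and sorting, its cells were encapsulated and sequenced as 2 technical replicate libraries, here called library 1 and library 2. Wherever a pair of values is given for a cell type, the first is that of library 1 and the second that of library 2. Every cell therefore came from the same animal, and the spread between the libraries is technical. No test between animals was possible, and no p-value is given.

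The cell types were those of the authors' table of cells. They held 213 and 208 hematopoietic stem and progenitor cells (spelled HPSC in the table), 932 and 818 erythroid-committed progenitors (Ery), 3820 and 3612 erythroblasts (Eryb), and 170 and 118 yolk sac-derived primitive erythroblasts (EryP). The rarer types were granulocytes (G, 157 and 130 cells), megakaryocytes (Mk, 79 and 56), monocytes and Kupffer cells (Mo/KC, 56 and 58), endothelial cells (EC, 20 and 26) and hepatoblasts (Hepa, 33 and 31). Ery is further divided into Ery 1 and Ery 2, and Eryb into Ery 3 to Ery 6. The authors named Ery and Eryb with Klf1 among their markers, and all types were defined by clustering the same transcriptomes, so the levels below describe these cell types and do not test them.

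KLF proteins are transcription factors with a conserved zinc finger domain that binds GC-rich and CACCC elements in promoters and enhancers. Outside this domain they differ in the partners that they recruit. KLF1, the founding member, is the erythroid activator of globin, heme and red cell membrane genes. KLF2 and KLF4 are activators best known from endothelial cells and monocytes, and KLF6 is a related activator found in many tissues. KLF3 recruits the CtBP corepressors and is itself encoded by a KLF1 target gene, whereas KLF9, KLF10 and KLF13 recruit the Sin3A corepressor.

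To show where members with erythroid and endothelial expression start, the bases just ahead of 3 of them are given below, from the promoter windows of RefSeq on build GRCm38.p6. Capitals mark the CACCC element that KLF proteins bind, the GATAA element of GATA factors, each on either strand, and a MEF2 element.
Klf1: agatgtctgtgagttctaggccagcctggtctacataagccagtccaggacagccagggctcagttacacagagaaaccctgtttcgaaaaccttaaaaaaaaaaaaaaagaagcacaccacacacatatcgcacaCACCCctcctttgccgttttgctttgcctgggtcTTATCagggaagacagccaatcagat
Klf3: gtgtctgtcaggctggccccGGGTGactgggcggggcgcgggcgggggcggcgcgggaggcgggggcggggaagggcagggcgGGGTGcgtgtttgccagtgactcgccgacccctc
Klf2: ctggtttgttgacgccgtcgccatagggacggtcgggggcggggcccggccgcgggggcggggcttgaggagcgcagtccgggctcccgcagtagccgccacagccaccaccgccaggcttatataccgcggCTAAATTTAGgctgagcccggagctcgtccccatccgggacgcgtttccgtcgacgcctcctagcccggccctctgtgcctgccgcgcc
These stretches lie on the plus strand at chr8:84901732-84901927, chr5:64803271-64803387 and chr8:72318812-72319032, and end where the annotated gene begins.

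In the annotation (GENCODE vM21, build GRCm38) Klf1 has 3 exons on the plus strand of chromosome 8 from 84901928 to 84905291, and Klf2 also lies on chromosome 8, from 72319033 to 72321656. Klf3 has 6 exons on chromosome 5 from 64803388 to 64832901. The other members lie on chromosomes 4 (Klf4, 55527143 to 55532466), 13 (Klf6, 5861482 to 5870394), 19 (Klf9, 23141226 to 23168134), 15 (Klf10, 38291463 to 38300706) and 7 (Klf13, 63886351 to 63938915). RefSeq windows of 300 bases, each from 250 bases before a start to 50 after it, were found for 7 members and searched on both strands. CACCC was in 5 of these 7 windows and in 57.5% of all 32851 windows. CCNCNCCC, a looser form of the KLF element that can overlap CACCC, was in 5 of the 7 and in 49.5% of all. GATAA was in the Klf1 window alone, 80 bases before the RefSeq start and after a CACCC that began 114 bases before it, and in 25.4% of all windows. The MEF2 element was in the Klf2 window alone, 118 bases before the start, and in 3.19% of all. The Klf3 window held 5 CACCC and 10 CCNCNCCC matches. A match describes the letters of a window and does not show that a factor binds there.

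The cells of library 1 held 51969226 unique molecular identifiers (UMIs), each of which marks 1 captured RNA molecule, and those of library 2 held 62738015, with medians of 6261 and 9774 UMIs per cell. Levels are given as CPM, the UMIs of a gene per 1000000 UMIs of all cells of a type in a library, with exact Poisson 95% intervals in parentheses that cover counting error only. Globin genes held 36.7% and 59.2% of the UMIs of Eryb, and 76.7% and 82.5% of those of EryP, so that the CPM of every other gene in these types depends on the globin share. Levels are therefore also given as non-globin CPM, for which the UMIs of 10 globin genes were left out of the total, and as UMIs per cell. The libraries shared 31 barcodes. The marker lists of G, Mk, EryP, EC and Hepa were highest in their own type for every listed gene in both libraries, those of Mo/KC for 9 and 8 of 10 genes. Of 10 erythroid markers, 7 were highest in Ery or Eryb, and of 10 stem and progenitor cell markers, 4 were highest in HPSC. Comparisons took genes with a mean of at least 10 CPM over both types and libraries, and a gene was counted as higher or lower when it differed at least 2-fold in the same direction in both libraries.

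The 8 members were found at high levels in different cell types. In CPM, Klf1 and Klf3 were most abundant in erythroid cells, Klf2 in ECs, and Klf4, Klf6 and Klf13 in monocytes and Kupffer cells. Klf10 was under 50 CPM in every type, and Klf9 was under 3 CPM outside Ery in all types but Hepa. A mean level of at least 10 CPM was reached in 48 of the combinations of a member and 1 of the 9 cell types.

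**Figure D1:**
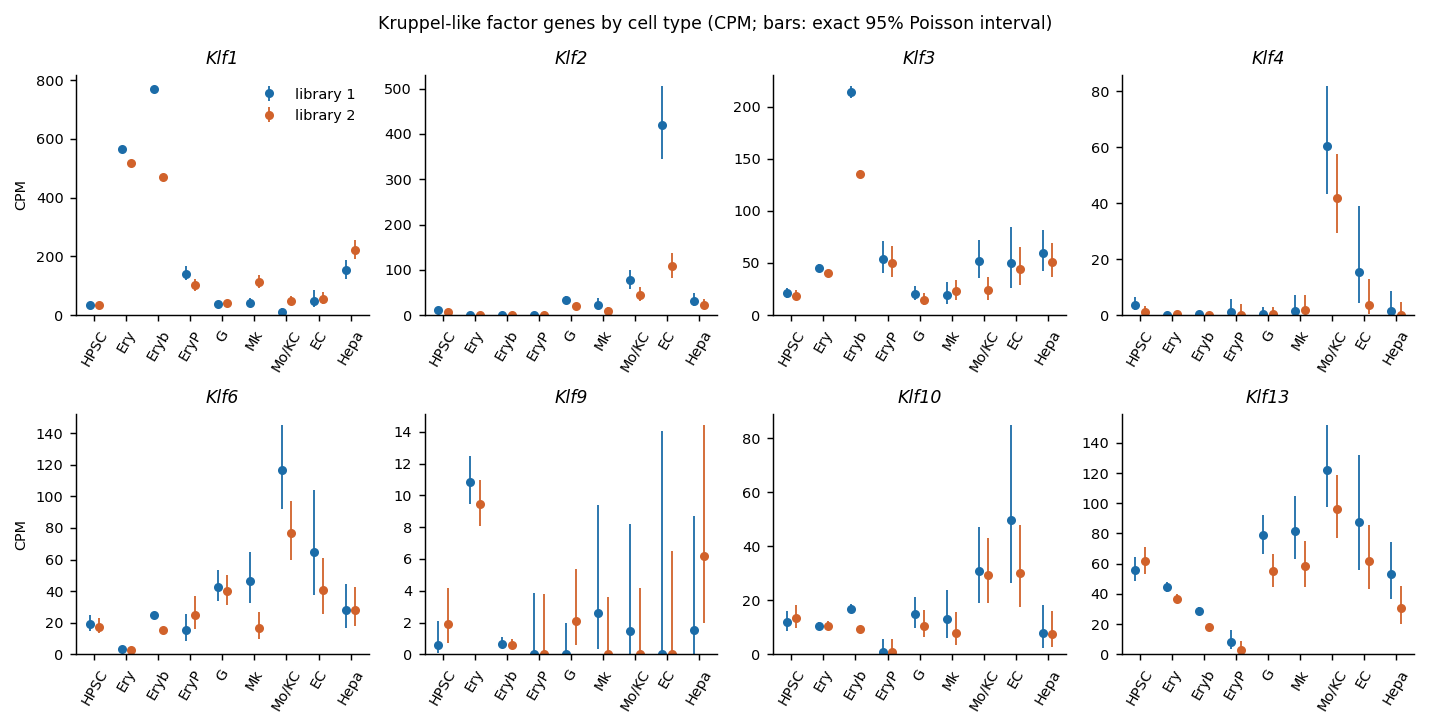
CPM of each KLF gene (y axis, a separate linear scale for each gene) in the 9 cell types (x axis); points are the 2 libraries and bars are exact Poisson 95% intervals. Klf1 peaked in Ery and Eryb with 470 to 769 CPM and Klf2 in ECs with 420 and 108 CPM, while Klf4 reached 60.4 and 41.8 CPM in Mo/KC.

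As each UMI stands for 1 molecule whatever its length, the UMIs of the family were also compared without division by gene length. Of the UMIs of all 17 Klf genes, Klf1 supplied 78.5% and 78.6% in Ery, and 70.4% and 69.8% in Eryb. In HPSC its share was 18.0% and 18.2%, below the 29.0% and 32.9% of Klf13, the largest share there. Klf3 supplied 6.32% and 6.15% of the family's UMIs in Ery but 19.6% and 20.0% in Eryb, and 29.6% in both libraries in Ery 5. These shares do not depend on globin, and in Ery and Eryb they were close between the libraries. In EryP, with fewer UMIs, Klf6 supplied 6.73% and 13.5%. In ECs the share of Klf2 was 48.2% in library 1, with an exact binomial 95% interval of 41.6 to 54.9%, and 21.6% in library 2, below that interval.

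**Figure D2:**
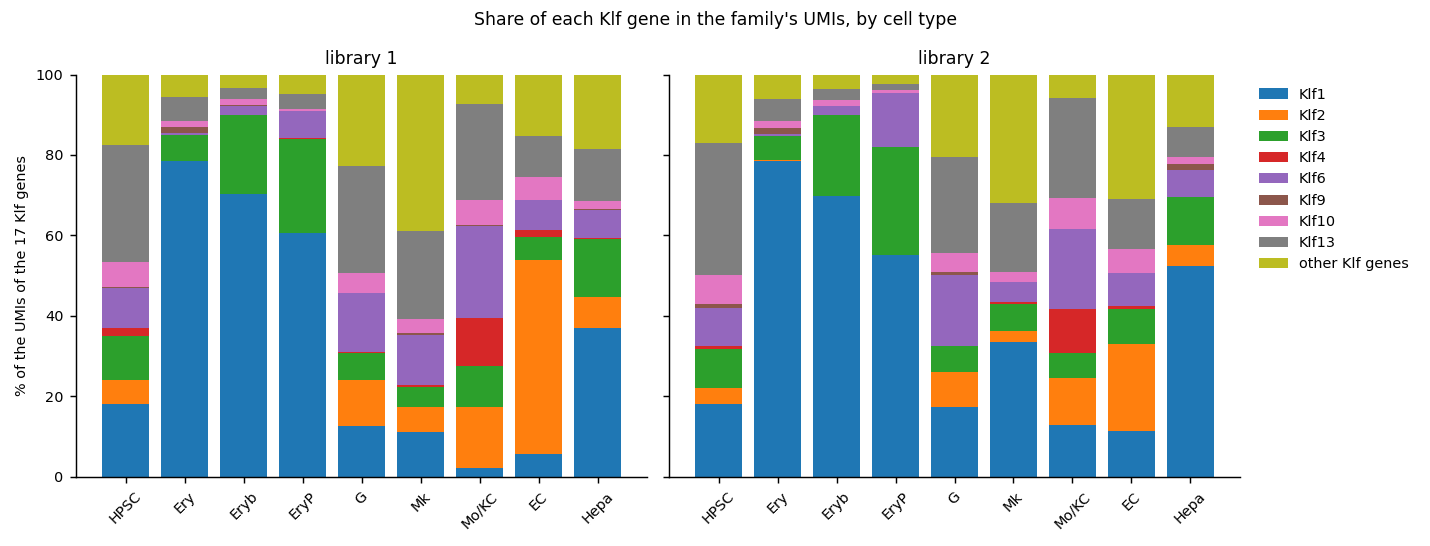
Percent of the UMIs of the 17 Klf genes (y axis) from each member and from the other Klf genes together, by cell type (x axis) and library (left and right). Klf1 fills 78.5 and 78.6% of the bar of Ery, and in HPSC Klf13 holds the widest band with 29.0 and 32.9%.

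The level of Klf1 was 566 CPM (555 to 577) and 518 CPM (507 to 528) in Ery, against 34.8 CPM (28.8 to 41.6) and 34.2 CPM (28.1 to 41.4) in HPSC. This corresponds to a log2 difference of 3.97 ± 0.0742 (SD, n = 2 libraries). As Klf1 was used to name Ery, the difference is a description of that name. Free RNA, which enters every droplet and was measured in barcodes with 1 to 50 UMIs, held Klf1 at 443 and 338 CPM. If the whole Hbb-bs signal of HPSC came from free RNA, this RNA would bring 116 Klf1 UMIs in library 1, where 120 were found, and 69.9 in library 2, where 107 were found. The Klf1 level of HPSC was therefore within counting error of free RNA in library 1 and above it in library 2, so that no ratio is given with these UMIs subtracted. The Hbb-bs signal was that of all cells of the type together, so that a few cells rich in Hbb-bs raise this share. In library 1, 11 of 213 HPSC held 68 of the 120 Klf1 UMIs. Their Hbb-bs was at 39601 CPM, against 4002 CPM in the 154 cells without a Klf1 UMI.

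After thinning to 3600 UMIs per cell, 81.6% (78.7 to 84.3%) and 78.4% (75.4 to 81.1%) of Ery cells held a Klf1 UMI, compared with 8.53% (5.13 to 13.1%) and 10.1% (6.36 to 15.0%) of HPSC. Without thinning these shares were 89.3% and 96.0% in Ery, at medians of 22587 and 23236.5 UMIs, and 27.7% and 27.9% in HPSC, at 16053 and 14956. Thinning left out 155 Ery cells and 2 HPSC of library 1. In Mo/KC, a type that should lack Klf1, 2.17% (0.0550 to 11.5%) and 17.2% (8.59 to 29.4%) of thinned cells held a UMI, at medians of 12888 and 15241.5 UMIs. The HPSC share was thus not above that of Mo/KC in library 2, and the intervals overlapped in library 1. In library 2, however, 5 Mo/KC cells held 25 of the 44 Klf1 UMIs of this type. These 5 cells had Gata1 at 113 CPM, against 5.19 CPM in the 37 cells without a Klf1 UMI. Mo/KC was therefore no clean background for Klf1 in library 2, and the share of HPSC cannot be judged by it there.

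Klf3, the CtBP-binding member, was at 45.5 and 40.5 CPM in Ery, and at 20.9 and 18.6 CPM in HPSC. Both libraries placed Ery above HPSC, by 1.13 ± 0.00181 on the log2 scale. Klf6 went the other way, with 3.57 CPM and 2.89 CPM in Ery against 19.4 and 17.6 CPM in HPSC, a log2 difference of -2.53 ± 0.114. In the comparison of Ery with HPSC, 5 of the 8 members reached the minimum level. Klf1 and Klf3 were higher, where 6.14% of the 6772 genes compared were higher, and Klf6 was lower, where 13.8% were lower. Klf6 reached the minimum level through HPSC alone, so that its direction was set by that minimum. Klf10 and Klf13 differed by less than 2-fold (-0.27 and -0.54 on the log2 scale). On UMIs per cell, the median of all genes was at 0.41 rather than -0.03, and 59.2% rather than 30.8% of the genes past 2-fold were higher. The direction of Klf1, Klf3 and Klf6 was the same on both scales.

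Klf9 was found mainly in Ery, though it stayed under the minimum of this comparison. Its level was 14.6 CPM (12.3 to 17.2) and 11.7 CPM (9.64 to 14.2) in Ery 1, and 6.86 and 7.01 CPM in Ery 2. It was 1.17 and 2.20 CPM in Ery 3 and under 1 CPM in Ery 4, Ery 5 and Ery 6, and HPSC held 0.580 and 1.92 CPM. Its 207 UMIs in library 1 and 170 in library 2 in Ery exceeded those of all other types together. KLF9 is known as a glucocorticoid-responsive factor. A list of 9 other genes linked to glucocorticoids held 5 that could be compared between Ery and HPSC. Nr3c1, which encodes the glucocorticoid receptor itself, was higher in Ery (21.1 and 21.5 CPM against 6.38 and 7.36 CPM). The other 4 were lower, led by the cell cycle inhibitor Cdkn1c (2.78 and 2.39 CPM against 37.4 and 37.1 CPM). Of all genes compared, 6.14% were higher and 13.8% were lower. In UMIs per cell, 2 of the 4 were lower, as were 653 of all 6772 genes.

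Between Ery and Eryb the members differed in different ways on the 3 scales. Klf6 was at 24.9 and 15.5 CPM in Eryb, which was higher than in Ery by 2.62 ± 0.268 on the log2 scale in CPM, by 3.54 in non-globin CPM and by 1.19 in UMIs per cell. Klf6 thus kept its direction past 2-fold on each scale. With 3.57 and 2.89 CPM in Ery, however, it reached the minimum level through Eryb alone, so that its direction in CPM was set by that minimum. Klf3 was at 214 CPM (208 to 220) and 135 CPM (131 to 139) in Eryb, higher by 1.99 ± 0.354 in CPM, by 2.91 in non-globin CPM and by 0.56 in UMIs per cell, so that its direction held while its size did not. Klf1 was at 769 CPM (758 to 780) and 470 CPM (463 to 478) in Eryb, above Ery in library 1 and below Ery in library 2. With globin left out it was at 1215 and 1153 non-globin CPM in Eryb, higher than in Ery by 1.08 on the log2 scale. Each Eryb cell nevertheless held fewer Klf1 UMIs, with 4.88 and 4.62 against 11.6 and 11.4 in Ery, a log2 difference of -1.27. The direction of the Klf1 difference therefore depended on the scale.

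In CPM, Klf3 and Klf6 were the 2 of 5 compared members that were higher in Eryb than in Ery, and no compared member was lower. This count includes Klf6, whose direction was set by the minimum level. Of the 5517 genes compared, 5.17% were higher and 50.4% were lower. Klf9 lay under the minimum level and was not compared. It was at 0.659 and 0.620 CPM in Eryb against 10.9 and 9.45 CPM in Ery, a log2 difference of -3.99. With globin UMIs left out, Klf1, Klf3, Klf6 and Klf10 were higher (4 of 5), where 14.4% of genes were higher and 25.6% were lower. In UMIs per cell, Klf6 was higher, and Klf1 and Klf13 were lower past 2-fold in both libraries, where 1.45% of genes were higher and 88.1% were lower. The median of all genes was at -1.30 in CPM, -0.37 in non-globin CPM and -2.72 in UMIs per cell, and 9.29%, 36.0% and 1.62% of the genes past 2-fold were higher on these scales. In CPM each of the 5 compared members lay above the median gene, with Klf13 the nearest at -0.82, and a change of scale shifts all genes of a library alike.

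The subclusters showed that the members peaked at different steps of the erythroid series. In mean non-globin CPM, Klf1 passed from 438 in Ery 1 through 698, 937 and 1329 to 1672 in Ery 5, and was at 1213 in Ery 6. The per-cell number of Klf1 UMIs was highest in Ery 1 and Ery 2 (10.9 to 11.8) and was 2.41 and 2.16 in Ery 6, which held a median of 4378 and 7882.5 UMIs per cell in contrast to 26146 and 25977 in Ery 1. Klf3 showed a steeper course, from 30.6 non-globin CPM in Ery 1 to 809 in Ery 5 and 470 in Ery 6. In the case of Klf3 the number of UMIs per cell also peaked in Ery 5, with 2.28 and 2.18, against 0.765 and 0.802 in Ery 1.

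Klf6 stayed between 1.26 and 5.62 CPM from Ery 1 to Ery 3 and was lowest in Ery 2 in both libraries. It reached 111 non-globin CPM in Ery 5 and 102 in Ery 6, and the values of the libraries overlapped between these subclusters. Klf10 was at 9.68 non-globin CPM in Ery 1 and 45.4 in Ery 5, and then at 4.63 in Ery 6, the lowest level of its series, from 12 and 9 UMIs. Klf13 peaked earlier, with 66.2 non-globin CPM in Ery 3, and was at 12.1 in Ery 6. Its number of UMIs per cell was highest in Ery 1, at 1.02 and 0.866, and lower in every later subcluster of both libraries.

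From Ery 1 to Ery 5 the log2 difference in non-globin CPM was 4.73 for Klf3, 4.69 for Klf6, 2.23 for Klf10, 1.93 for Klf1 and -0.78 for Klf13, against a median of -0.69 over the 5571 genes compared. On UMIs per cell the differences were 1.51 for Klf3 and 1.47 for Klf6, and -0.99, -1.28 and -3.99 for Klf10, Klf1 and Klf13, with a median of -3.91. Klf3 and Klf6 were the 2 members with more UMIs per cell in Ery 5 than in Ery 1 in both libraries, each past 2-fold. Of the 5571 genes compared, 139 were higher and 4946 lower past 2-fold in both libraries in UMIs per cell. Klf6, at 4.05 and 4.42 CPM in Ery 1, reached the minimum level through Ery 5 alone. Klf13 lay within 0.1 of the median gene on both scales.

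**Figure D3:**
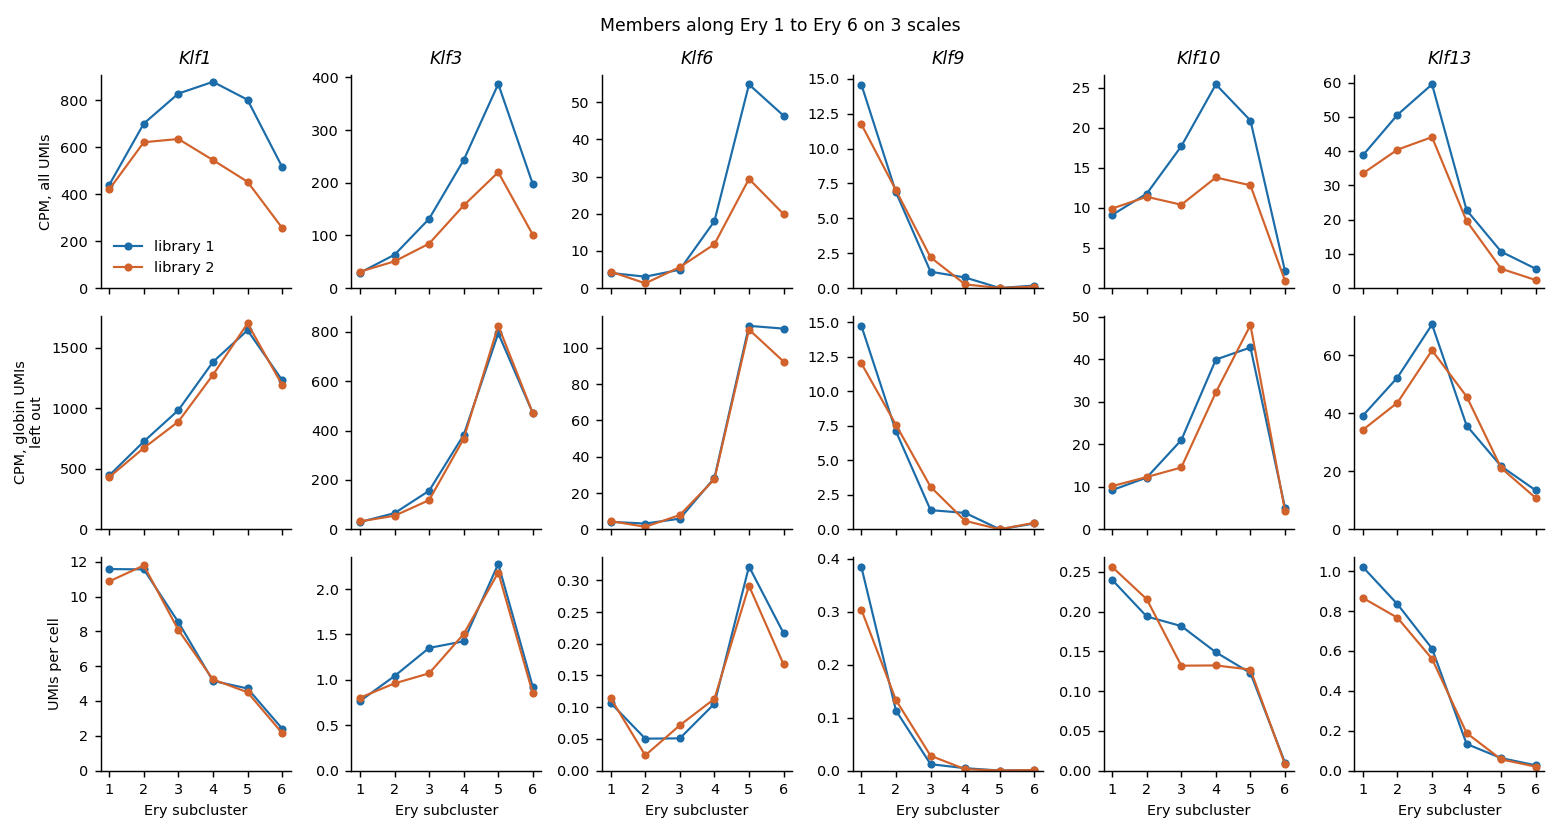
Levels of 6 members (columns) in Ery 1 to Ery 6 (x axis) as CPM over all UMIs, as CPM with globin UMIs left out, and as UMIs per cell (rows); lines are the 2 libraries. The libraries part in the upper row and lie close in the middle row, and Klf1 peaks in Ery 5 in the middle row but in Ery 1 or Ery 2 in UMIs per cell.

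A second order, by the share of UMIs from 4 adult globin genes, divided the Ery and Eryb cells of each library into 10 groups of equal size. This order did not use the subclusters. Klf1 was at 468 and 476 non-globin CPM in the first group, peaked at 1529 (1461 to 1599) in the eighth group of library 1 and at 1564 (1494 to 1636) in the seventh of library 2, and was at 1086 and 994 in the last. Klf3 peaked in the eighth group of both libraries, with 664 and 720 non-globin CPM, from 31.5 and 32.1 in the first group. Klf6 was highest in the last group of library 1, with 145 (118 to 175), and in the ninth of library 2, with 136, where its intervals overlapped with those of the neighbouring groups. Klf10 peaked in the seventh group, with 41.7 and 43.0, and was at 1.38 and 1.69 in the last, from 1 UMI in each library. Klf13 peaked in the third group of library 1 (79.4) and the fourth of library 2 (62.4), ahead of Klf1 and Klf3. For the peak groups of Klf1, Klf3 and Klf10, and of Klf13 in library 2, the interval overlapped with that of a neighbouring group. Klf9 was highest in the first group, with 14.6 (12.4 to 17.1) in library 1. The same group number stood for different globin shares, as the median of the last group was 63.5% in library 1 and 83.3% in library 2.

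**Figure D4:**
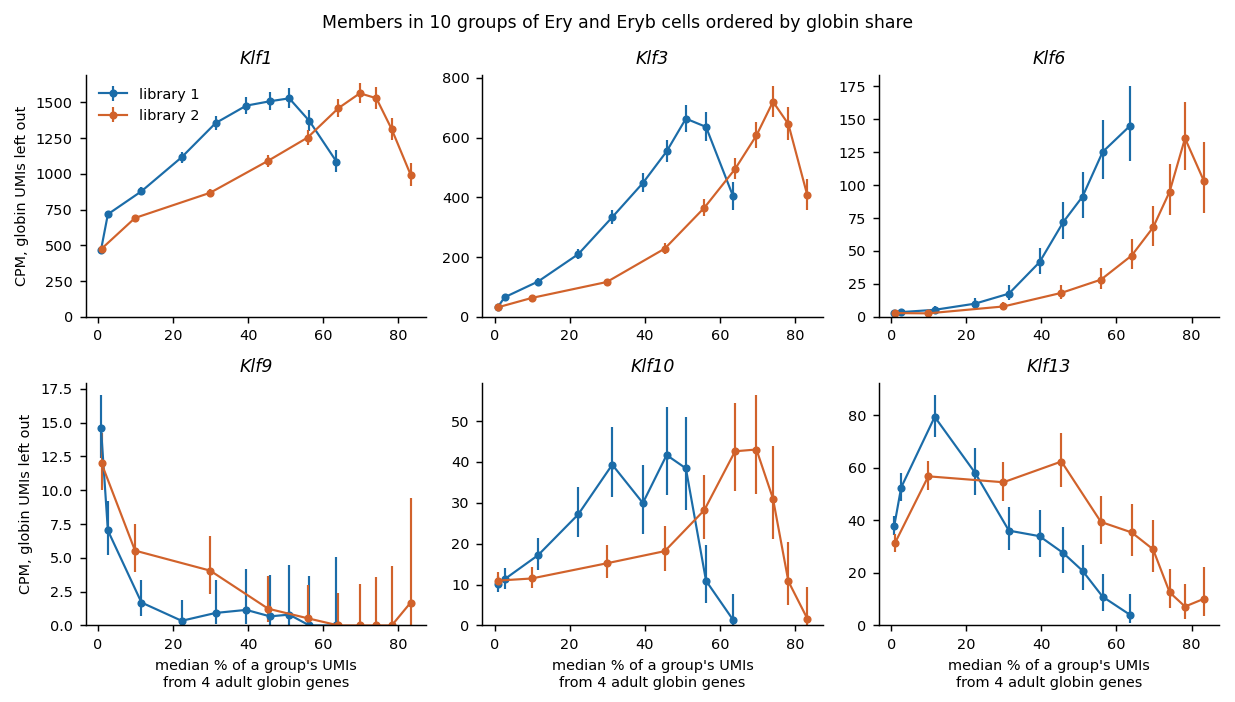
Non-globin CPM of 6 members (y axis) in 10 groups of Ery and Eryb cells against the median percent of a group's UMIs from 4 adult globin genes (x axis); bars are exact Poisson 95% intervals and colors are the libraries. Klf9 is highest in the first group and Klf13 in the third group of library 1 and the fourth of library 2, Klf10, Klf1 and Klf3 peak further along, and Klf6 peaks in the last or ninth group.

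The libraries differed in Eryb for all 5 members that could be compared. Each was lower in library 2 by more than 1.5-fold in CPM, with log2 differences of -0.67 for Klf3, -0.68 for Klf6 and Klf13, -0.71 for Klf1 and -0.87 for Klf10, and the median of the 4265 genes compared was -0.68. Of these genes, 73.9% were past 1.5-fold in either direction, so that the members followed the rest. With globin UMIs left out, the differences were -0.03 to -0.08 for Klf1, Klf3, Klf6 and Klf13 and -0.24 for Klf10, with a median of -0.04.

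The genes known to depend on KLF1 were examined as a list of 32, of which 31 were in the files. In Ery, 21 of the 29 compared were higher than in HPSC and none was lower, where 6.14% of all genes were higher and 13.8% were lower. The median of the list was 2.1 on the log2 scale against -0.03 over all genes compared. The greatest differences were those of the water channel gene Aqp1 (4.26), the membrane skeleton gene Add2 (3.74), the transcription factor gene Gata1 (3.74) and the adhesion gene Icam4 (3.54). In Eryb, 18 of 30 were higher than in Ery, with a median of 1.92 against -1.30, where 5.17% of all genes were higher and 50.4% were lower. The 18 were led by Alas2 (4.12), the first enzyme of erythroid heme synthesis, and the adult globin genes Hba-a2 (3.99), Hbb-bs (3.99) and Hbb-bt (3.73). The 3 that were lower were Cd44 (-3.72), Aqp1 (-2.26) and Bcl11a (-2.02). With globin UMIs left out, 26 were higher and 3 lower, where 14.4% of all genes were higher and 25.6% were lower. In UMIs per cell 9 were higher and 5 lower, where 1.45% of all genes were higher and 88.1% were lower. The list consists of genes known from erythroid cells and includes Klf3, so that it is not independent of the names of these cell types. Of 14 genes of corepressors and coactivators that bind KLF proteins, 12 were compared between Ery and HPSC. Zfpm1, which encodes the GATA1 partner FOG1, was the one gene that passed 2-fold (61.5 and 63.0 CPM against 13 and 10.6 CPM). As 6.14% of all genes compared were higher and 13.8% were lower, 1 higher gene of 12 lay near the share of all genes.

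In primitive erythroblasts Klf1 and Klf3 were again the leading members. Klf1 was at 141 CPM (118 to 167) and 101 CPM (82.4 to 124), Klf3 at 54.3 and 49.7 CPM, and Klf6 at 15.7 and 24.9 CPM. Klf13 gave 8 and 3 UMIs, Klf10 gave 1 UMI in each library, and Klf2 and Klf9 gave none. Compared with Eryb, Klf1 (-2.33), Klf13 (-2.17) and Klf3 (-1.71) were lower in CPM, where 1.64% of the 3480 genes compared were higher and 70.8% were lower, and Klf6 did not differ past 2-fold. With globin UMIs left out none of the 4 members passed 2-fold in both libraries, where 6.58% of genes were higher and 17.6% were lower. The log2 differences were then -1.01 and -0.99 in the libraries for Klf1, and on average -0.38 for Klf3, -0.84 for Klf13 and 1.34 for Klf6, the last from 0.77 in library 1 and 1.90 in library 2, and the median gene was at -0.37 in place of -1.70. On this scale 27.2% of the genes past 2-fold were higher, in contrast to 2.26% in CPM. The list of KLF1-dependent genes moved between the scales as well, with none higher and 18 of 28 lower in CPM, and 3 higher and 3 lower when globin UMIs were left out.

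Outside the erythroid types, each type was compared with HPSC, so that these comparisons share the HPSC cells. Klf2, which maintains quiescent endothelium, had an EC level of 420 CPM (345 to 506) in library 1 but 108 CPM (82.3 to 138) in library 2, from 110 and 61 UMIs. HPSC held 11.9 and 7.04 CPM, and Ery 0.262 and 0.556 CPM. The HPSC mean of 9.46 CPM lies under the minimum level, so that Klf2 could be compared only through a higher level in the other type. Its direction in these comparisons was therefore set by that minimum. The EC level was above HPSC by 4.54 ± 0.854 on the log2 scale, and the libraries differed beyond counting error. A UMI of Klf2 was found in 10 of 20 ECs of library 1 and 18 of 26 ECs of library 2, and the cell with the most held 28 of 110 and 13 of 61 UMIs. After thinning, 47.4% (24.4 to 71.1%) and 38.5% (20.2 to 59.4%) of ECs held a UMI, and these intervals overlapped, whereas 0.119% and 0.0277% of Eryb cells did. The shares without thinning were 50.0% and 69.2% of ECs, at medians of 13054.5 and 15744.5 UMIs. Klf2 was higher in library 1 than in library 2 in each of the 6 non-erythroid types, and its level in free RNA was 48.6 and 4.59 CPM. The largest free-RNA share would give 1.86 and 0.132 Klf2 UMIs in ECs.

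In ECs, Klf10 (49.6 and 30.0 CPM), Klf6 (64.9 and 40.6 CPM) and Klf3 (49.6 and 44.1 CPM) were also higher than in HPSC, by 1.61, 1.47 and 1.25 on the log2 scale. Hence 4 of the 6 members compared were higher, where 13.4% of the 7434 genes compared were higher and 7.57% were lower. The 4 include Klf2, whose direction was set by the minimum level. In UMIs per cell Klf3 no longer passed, with 0.94 in library 1. Klf13 did not pass 2-fold. Klf4, the other endothelial activator, gave 4 and 2 UMIs in ECs, too few for a comparison. All 9 compared genes of a list of 10 known endothelial targets of KLF2 and KLF4 were higher in ECs. Their median was 5.61, for which a count of 0 was set to 3 counts in a library. The 10 genes summed to 41.2 and 41.9 CPM in HPSC and to 1347 and 1196 CPM in ECs. Genes this low in HPSC reached the minimum level through ECs, so that the count of 9 was largely set by that minimum. They included the growth factor receptor gene Kdr (343 and 369 CPM against 1.45 and 1.28 CPM) and the fenestral diaphragm gene Plvap (645 and 524 CPM against 5.80 and 9.92 CPM). Vcam1 (64.9 and 45.9 CPM) and Cav1 (22.9 and 38.8 CPM) gave at most 1 UMI in HPSC of either library. Several of these genes mark endothelium in general, and the list is not independent of the name of the cell type. The list was also not divided by whether KLF2 or KLF4 raises or lowers a gene. High levels of Vcam1 or other listed genes in ECs therefore do not show activation by these factors.

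Monocytes and Kupffer cells held the highest level of 3 members in CPM. Klf4, which promotes monocyte differentiation, was at 60.4 CPM (43.4 to 82.0) and 41.8 CPM (29.4 to 57.6), while every other type except ECs was under 4 CPM in both libraries. Klf6 was at 116 CPM (92.2 to 145) and 76.8 CPM (59.6 to 97.4), and Klf13 at 122 CPM (97.4 to 152) and 96.0 CPM (76.7 to 119). The libraries overlapped in their intervals for each of these members. With globin UMIs left out, Klf6 was at 118 and 79.8 non-globin CPM in Mo/KC. In EryP it was at 67.2 and 142 non-globin CPM, from 15 and 24 UMIs, and thus above Mo/KC in library 2.

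Compared with HPSC, Klf4 was higher in Mo/KC by 4.52 ± 0.726 on the log2 scale, Klf2 by 2.69 ± 0.00457, Klf6 by 2.35 ± 0.324 and Klf10 by 1.25 ± 0.179. These were 4 of the 7 members compared, where 8.88% of the 7061 genes compared were higher and 6.16% were lower. Klf4 was at 3.77 and 1.28 CPM in HPSC, from 13 and 4 UMIs. It reached the minimum level through Mo/KC alone, so that its direction was set by that minimum and its size rests on few UMIs. Klf2, with a mean of 9.46 CPM in HPSC, could also not be counted as lower. The genes past 2-fold were higher in 59.0% of cases in CPM and in 48.6% in UMIs per cell, and the median of all genes was at -0.12 and -0.31. In UMIs per cell Klf10 no longer passed, with 0.96 in library 1. Klf13 (0.88) and Klf3 (0.83) did not pass 2-fold in both libraries. With library 1 alone all 7 did, including Klf1, which was lower at 11.8 CPM from 8 UMIs. No share of all genes is given for 1 library alone. After thinning, 15.2% and 17.2% of Mo/KC held a Klf4 UMI and 30.4% and 22.4% a Klf6 UMI, whereas 0.772% and 1.22% of Ery cells held a Klf6 UMI and none of the 777 and 818 thinned Ery cells held a Klf4 UMI, a count of 0 that limits the share with a UMI to 0.386% and 0.367% (3 counts of the total). Unthinned, 2 of 932 and 4 of 818 Ery cells held one. Without thinning 28.6% and 25.9% of Mo/KC held a Klf4 UMI and 57.1% and 53.4% a Klf6 UMI. Mo/KC also carried markers of granulocytes, with a summed level of 8920 and 10681 CPM for the 10 G markers, of which 9 had a UMI, against 68296 and 56370 CPM in G. The part of these in the Klf levels was not tested.

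Several KLF genes are known to be induced along with immediate early genes when tissue is dissociated, so these were examined as well. In Mo/KC, Fos (243 and 224 CPM against 53.6 and 36.2 CPM), Egr1 and Jun were higher than in HPSC among 16 immediate early genes compared, and Dusp2 and Nr4a1 were lower. Of all genes in this comparison, 8.88% were higher and 6.16% were lower. The summed level of the 22 listed genes was 5444 and 4954 CPM in Mo/KC, 3736 and 3896 CPM in ECs and 4734 and 4416 CPM in HPSC. The list also held the heat shock genes Hspa8, Hspa1a and Dnajb1, so that this sum is not one of immediate early genes alone. In ECs, 3 of 17 were higher (Atf3, Dusp1 and Egr1) and 2 were lower (Nr4a1 and Dusp2), where 13.4% of all genes were higher and 7.57% were lower. In UMIs per cell, 2 were higher and 4 lower in Mo/KC, and 5 were higher and 2 lower in ECs. On this scale 513 of all 7061 genes were higher and 542 lower in Mo/KC. In ECs 971 of all 7434 genes were higher and 446 lower. In Ery, 9 of 14 were lower than in HPSC in CPM, led by Nr4a1 (-3.74) and Zfp36 (-3.40), and none was higher. The summed level of Ery was nevertheless 5422 and 5267 CPM, above that of HPSC. In UMIs per cell, 6 of the 14 were lower and 0 were higher, where 653 of all 6772 genes were lower and 947 were higher. In CPM, 13.8% of all genes in this comparison were lower and 6.14% were higher. In Eryb, the summed level was 1581 and 1003 CPM. Btg2 (2.45), Dusp1 (2.43) and Ier3 (1.93) were higher than in Ery in CPM, and Hspa8 and Junb were lower. Of all genes, 5.17% were higher and 50.4% were lower in CPM. In UMIs per cell, 1 of the 9 compared was higher and 5 were lower, where 1.45% of all genes were higher and 88.1% were lower. The part of dissociation in the levels of Klf2, Klf4, Klf6 and Klf10 was not tested.

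In the G cluster, Klf2 (33.3 and 19.5 CPM) and Klf6 (42.8 and 40.1 CPM) were higher than in HPSC, by 1.48 ± 0.0110 and 1.16 ± 0.0332 on the log2 scale. These were 2 of 6 members compared, where 5.47% of the 6963 genes compared were higher and 4.51% were lower. Klf2, with a mean of 9.46 CPM in HPSC, could not be counted as lower, so that its direction was set by the minimum level. Of the genes past 2-fold, 54.8% were higher in CPM and 42.0% in UMIs per cell. On the latter scale Klf2 alone passed, where 4.48% of genes were higher and 6.19% were lower, and the median of all genes was at -0.43 rather than -0.20. G cells were further divided by whether early or late granule genes made up more of their UMIs, a split chosen after values had been seen. Klf2 was at 88.9 and 45 CPM in cells with mainly late granule genes and at 2.47 and 5.69 CPM in those with mainly early ones. Klf6 was at 88.9 and 79.6 CPM in the late cells and 17.3 and 18.7 CPM in the early cells, and Klf13 at 126 and 75.1 CPM and 50.3 and 43.9 CPM. Klf1 (59.3 and 57.1 CPM against 25.6 and 30.9 CPM) and Klf3 (37.0 and 18.0 CPM against 10.7 and 13 CPM) were also above in the late cells of both libraries, and Klf10 lay above by less (16.3 and 15.0 CPM against 14.0 and 8.13 CPM). In CPM the late granule cells were thus above the early ones for each of these 6 members. The intervals overlapped for Klf10 in both libraries, and for Klf1, Klf3 and Klf13 in library 2. The late cells were also shallower, with 674950 UMIs in 87 cells against 1213244 in 69 early cells of library 1. Klf10 gave 11 UMIs in these 87 late cells and 17 in the 69 early cells, and Klf1 gave 40 and 31. In library 2, Klf3 gave 12 UMIs in 62 late cells and 16 in 68 early cells. In these cells Klf1 gave 38 and 38 UMIs, and Klf13 gave 50 and 54. The Klf1 UMIs of all G cells were within counting error of the largest free-RNA share and were unevenly spread over the cells, as given below. The split was not compared over all genes. Among the other Klf genes, Klf5 was higher in G than in HPSC, with 27.5 and 16.4 CPM against 0.580 and 1.28 CPM. Klf5 reached the minimum level through G alone, so that its direction was set by that minimum.

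Megakaryocytes were the type in which no member passed 2-fold against HPSC in both libraries, with 6 compared, where 8.63% of the 7196 genes compared were higher and 6.43% were lower. Klf13 was the most abundant member, with 81.8 and 58.2 CPM. The libraries disagreed for Klf1, at 41.6 CPM (28.4 to 58.7) and 113 CPM (93.6 to 136), and for Klf6, at 46.8 CPM (32.7 to 64.7) and 16.8 CPM (9.77 to 26.8). With 1 library alone, Klf6 passed 2-fold in library 1 (1.27 on the log2 scale) and Klf1 in library 2 (1.73). Neither pair of intervals overlapped, and the median depth of Mk was 5699 and 16944.5 UMIs. In contrast, Klf7, a family member outside the 8, was at 116 and 76.9 CPM in Mk and 114 and 125 CPM in ECs, above HPSC by 3.03 and 3.37 on the log2 scale.

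Hepatoblasts, the epithelial cells that form hepatocytes, held the third highest level of Klf1 in CPM, and the fourth, after EryP, with globin UMIs left out. This was 153 CPM (124 to 187) and 221 CPM (190 to 256), from 98 and 179 UMIs, above HPSC by 2.41 ± 0.391 on the log2 scale. Klf2 (31.2 and 22.2 CPM) and Klf3 (59.4 and 50.6 CPM) were higher as well, by 1.53 and 1.48. These were 3 of 6 members compared, where 10.9% of the 7151 genes compared were higher and 14.7% were lower, and 42.6% of the genes past 2-fold were higher in CPM and 65.0% in UMIs per cell. The direction of Klf2 was set by the minimum level, as in ECs. In thinned cells Klf1 was the 1 member that passed, with 2.04.

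The Klf1 UMIs of hepatoblasts were unevenly spread. In library 1, 7 of 33 cells held 3 or more Klf1 UMIs and together 89 of the 98, and in library 2, 14 of 31 cells held 163 of the 179. This division of cells by their Klf1 UMIs was chosen after values had been seen. The 7 cells of library 1 had Gata1 at 103 CPM, Rhag at 112 CPM and the hepatoblast markers at a summed 37475 CPM, and the 19 cells without a Klf1 UMI had 9.62, 0 and 74539 CPM. The 14 cells of library 2 had 101, 72.5 and 28636 CPM, and the 5 cells without a Klf1 UMI had 28.3, 28.3 and 58344 CPM. Cells rich in Klf1 thus also carried other erythroid genes, and hepatoblast markers at a lower CPM, in both libraries. They were also deeper, with medians of 38806 and 27825 UMIs against 5648 and 6083 in the cells without a Klf1 UMI, and their hepatoblast markers gave 8695 UMIs in 7 cells and 13027 in 14 cells, against 15491 in 19 cells and 4128 in 5 cells. Of the list of KLF1-dependent genes, 18 of 29 were higher in hepatoblasts than in HPSC and 3 were lower. Of all genes compared, 10.9% were higher and 14.7% were lower. The 18 were led by Aqp1 (2.93), Ank1 (2.52), Sptb (2.48) and Icam4 (2.36). The part of doublets in the Klf1 level was not tested.

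The same division in other types gave few cells. In Mk of library 2, 8 of 56 cells held 92 of the 115 Klf1 UMIs and had Rhag at 143 CPM and the megakaryocyte markers at a summed 2739 CPM, against 4.81 and 18434 CPM in the 28 cells without a Klf1 UMI. In HPSC of library 1, 11 of 213 cells held 68 of the 120 UMIs, with Rhag at 91.8 CPM against 10.5 CPM in the 154 cells without. In ECs of library 2, 3 of 26 cells held 26 of the 32 UMIs. In G, 5 of 157 cells of library 1 held 43 of the 71 UMIs, and 11 of 130 cells of library 2 held 42 of the 76. Their Hbb-bs was at 56148 and 84974.5 CPM, against 3214 and 6439 CPM in G cells without a Klf1 UMI.

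Across the 6 non-erythroid types, the UMIs of the members were set against those that the largest free-RNA share would bring. Both libraries lay above free RNA beyond counting error for 34 of 48 combinations of a member and a type. No share of all genes is given for this count, so it does not set the members apart from other genes. Klf2, Klf3, Klf6, Klf10 and Klf13 lay above free RNA in both libraries in all 6 types, and Klf4 in HPSC, Mo/KC and ECs. For Klf1 this held in hepatoblasts alone, with 98 UMIs found against 24.6 from free RNA in library 1 and 179 against 28.3 in library 2. In G cells, 71 and 76 Klf1 UMIs were found against 67.4 and 65.7.

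**Figure D5:**
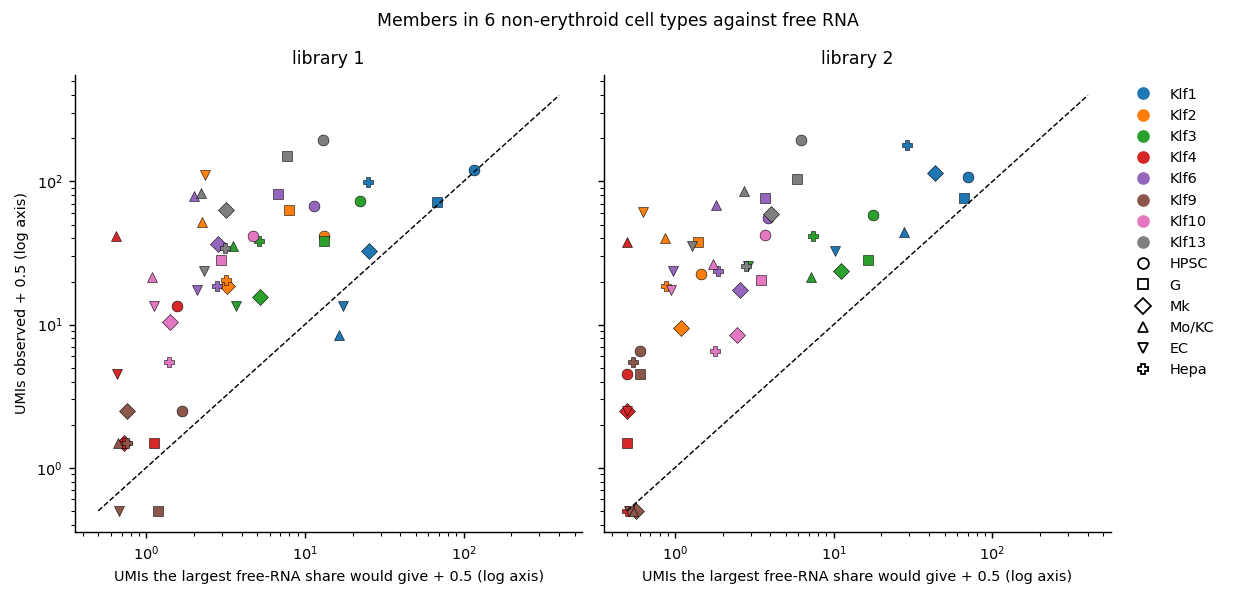
UMIs of each member found in a non-erythroid cell type (y axis) against the UMIs that the largest free-RNA share would give (x axis), both on log axes with the small constant named on the labels added, for library 1 (left) and library 2 (right); colors are members, shapes are types and the dashed line marks equal values. Klf1 in G and HPSC of library 1 lies on the line, with 71 against 67.4 and 120 against 116 UMIs, and most other members lie above it.

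Among the other Klf genes, Klf16 was at 26.2 and 28.3 CPM in Ery, Klf15 at 18.7 and 14.8 CPM in hepatoblasts and Klf11 at 15.0 and 8.31 CPM in Eryb. Of the related Sp genes, Sp3 had a mean of at least 10 CPM in all 9 types, and Sp2 was higher in Eryb than in Ery in CPM (30.8 and 16.9 against 9.92 and 7.34) but did not pass 2-fold in UMIs per cell.

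Finally, the genes with the pattern most like that of each member were sought among 6437 genes over 13 groups, namely the 7 types other than Ery and Eryb and Ery 1 to Ery 6, by the Pearson correlation of log2(CPM + 1), taking the lower value of the libraries. The groups share libraries and depth, and the values are descriptions. Klf1 was most like Glrx5 (0.983 in both libraries), Alad and Icam4, Klf3 most like Pir (0.945 and 0.938), Trim59 and Dmtn, and Klf13 most like Ppp1ca (0.973 and 0.982), Tor1a and Lamp1. Klf2 was most like Smad1 (0.971 and 0.960), Lpar6 and Anxa5, and Klf4 most like Marco (0.901 and 0.926), C1qb and C1qc. Klf10 was most like Reep5 (0.922 and 0.933), Tmem164 and Ptpra, and Klf9 most like Gdf3 (0.888 and 0.809), Sod2 and Minpp1. Klf6 had the weakest match, Ifnar1 (0.767 and 0.776), followed by Pnrc1 and Soat1.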

How the data were processed

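Cells of 1 wild-type E12.5 liver of strain C57BL/6 per the labels, and C57BL/6J in the methods, were dissociated, sorted by FACS and, per the labels, processed as 2 technical replicate libraries. The spread between the libraries therefore measures technical error. The authors deposited unnormalized UMI counts by gene and barcode, in a full and in a cell-filtered matrix per library, with a table that names the cluster and type of each cell. The submitters' processing notes name bcl2fastq 2, Cell Ranger 2.1.1, Seurat 3.2.0 and build mm10, and the header of the library 1 matrix names version 3.0.0. Columns not assigned to a library numbered 0.

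The UMIs of the cells of a type were summed per library and scaled to 1000000 UMIs (CPM). Cells without an entry in the table were not used. Genes with a mean of at least 10 CPM were compared, and differences of 2-fold or more in the same direction in both libraries were counted. A gene well under 10 CPM in 1 type could reach this mean only through the other type, which then set its direction. A count of 0 was set to 3 counts. With 1 animal no test was made, and intervals (95%, exact Poisson or Clopper-Pearson) cover counting error only. Shares of cells were taken after thinning each cell to 3600 UMIs (seed 1) and leaving out shallower cells. The sort removed doublets per the labels. No further doublets were removed here, and no doublet caller was run. The calls were tested on simulated counts with known differences. The tools were scipy 1.17.1, pandas 2.3.3 and numpy 2.4.6 under Python 3.11.15, with matplotlib 3.10.9 for plots.

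The members, the gene lists and the comparisons were chosen with earlier results of these data known. From each list the 2 to 4 genes with the greatest mean log2 ratio among those past 2-fold were named, together with all genes where few passed, and from the likeness search 3 genes per member. Genes of other Klf and Sp factors with no difference past 2-fold were named after their values were seen. Alternatives were other scales, the mean over single cells, thinned cells, stricter cells (at least 500 genes and under 10% mitochondrial UMIs), leaving out the 5% of cells with the most UMIs, subtraction of free RNA, no minimum level, a 1.5-fold limit, and each library alone.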

Additional observations from a re-analysis of the deposited data

Results flagged for a closer look

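Barcodes that were outside the deposited cell-filtered matrices but held at least 1000 UMIs and 200 genes were used in no comparison. Klf1 and Klf3 exceeded their free-RNA level there in library 1. Klf1 was at 692 CPM (613 to 779) in the 168 such barcodes of library 1, from 274 UMIs, against 443 CPM in free RNA. Klf3 was at 184 CPM (145 to 232) in these barcodes, from 73 UMIs, against 83.6 CPM in free RNA. In the 3311 such barcodes of library 2, Klf1 was at 364 CPM (350 to 379) against 338 CPM, and Klf3 at 69.0 CPM (62.9 to 75.6) against 82.6 CPM.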

How the results depend on the processing

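No member past 2-fold in CPM changed direction under any alternative run, while Klf1 in Eryb against Ery, which did not pass in CPM, was higher with globin UMIs left out (1.08) and lower in UMIs per cell (-1.27). With globin UMIs left out of the total, the number of members past 2-fold was 4 in place of 2 for Eryb against Ery and 0 in place of 3 for EryP against Eryb. Between the libraries in Eryb, 0 in place of 5 members were past 1.5-fold on this scale. UMIs per cell gave 1 member in place of 2 for G against HPSC. Without a minimum level, 6 members in place of 3 passed for Ery against HPSC, which adds members with few UMIs. In Mk against HPSC, where none passed, 1 member passed with the mean over single cells, 1 with thinned cells and 1 after subtraction of free RNA, and 1 with either library alone (Klf6 in library 1 and Klf1 in library 2). Thinned cells left 1 in place of 3 members for hepatoblasts against HPSC, and the cause was not tested. With 1 library left out, Mo/KC against HPSC gave 4 to 7 members, the 7 with library 1 alone. The number of combinations of a member and a type with a UMI in at least 10% of cells was 27 with thinned cells and 49 without thinning. The other counts were within 1.5 times their value. For single libraries, no minimum level, thinned cells, the mean over single cells and subtraction of free RNA, no share of all genes is given. The same holds for the combinations with a UMI in at least 10% of cells. It also holds for the count between the libraries in Eryb with globin UMIs left out. These counts show how the setting moves the members and are not a result about them. Some members that did not pass 2-fold had opposite signs in the libraries, such as Klf1 in Eryb against Ery. No paired analysis was possible because the libraries come from 1 group and every comparison was made within each library. Types with few cells limit what can be seen, as ECs held 20 and 26 cells and hepatoblasts 33 and 31.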
